A study of Mus musculus with 35 samples.

Results

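The comparison set 5 fasted mice labelled Per2 knockout against 10 fasted control mice. Libraries were taken by their titles, which gave 15 of the 35 libraries of the series, and every gene of the count tables was considered. All 15 animals were males of strain B6/J, without food for 16 h from lights-on to Zeitgeber time 16, the hours counted from lights-on. The labels named the genotypes Control and Per2 ko, and gave neither the age of the mice nor the knockout allele. Each library held polyA RNA from a dissected block of 1 hypothalamus, the brain region that holds the central clock and the neurons controlling hunger. No fed mouse carried the knockout label, so this comparison does not show how the label relates to feeding. The remaining 20 libraries, from fed controls and from fed and fasted PER2-S662D mice, served as further reference levels.

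Per2 encodes a repressor of the circadian clock. The activators CLOCK and BMAL1 drive transcription of the Per and Cry genes through E-box sequences, and the PER and CRY proteins enter the nucleus and block that drive until they are degraded. In the suprachiasmatic nucleus of the hypothalamus this loop sets daily timing for the body, and in other tissues it acts with feeding and glucocorticoid signals.

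Total counts were 18233548 to 25814045 in the 5 libraries labelled knockout and 17959586 to 22036714 in the 10 fasted controls. Library numbers in the file headers ran in separate ranges for controls 1-5, controls 6-10 and the labelled knockout, so the label and the range of library numbers cannot be told apart. No pair of libraries within a group agreed within sampling noise. On the first principal component of log2 CPM (counts scaled to library size), which held 15.4% of the variance, controls 1-5 lay at -18.8 to -6.01 and controls 6-10 at 8.05 to 25.2, while the labelled knockout spread from -25.5 to 8.37. The comparison was therefore also read against each control set.

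Per2 itself was no lower in the libraries labelled knockout. Its level in knockout replicates 1 to 5 was 33.4, 28.2, 29.5, 29.4 and 30.9 CPM, and the 10 controls ran from 26.1 over a median of 29.0 to 33.1 CPM. The groups overlapped, and the highest of all 15 values belonged to a library labelled knockout. The means were 30.3 ± 2.00 CPM (SD, n = 5) and 29.0 ± 2.45 CPM (SD, n = 10), a log2 fold change of 0.06 with a 95% interval of -0.07 to 0.19 (edgeR, adjusted p = 0.935). An exact two-sided permutation test over the 15 libraries gave p = 0.309. The 10 S662D libraries, by contrast, held 16.4 to 22.7 CPM of Per2. The count tables summed reads over the whole gene (mm10 chr1:91415982-91459324, minus strand), so they do not show whether a part of the transcript was missing. The label is used below as the group's name only.

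Across 18063 tested genes, 5 were called at an adjusted p below 0.05 (0.0277% of all tested), 1 higher and 4 lower in the labelled knockout. Of these, 4 lie on chromosome 1, the chromosome of Per2: Asb1, Ano7 and Gpr55 were lower, and Bok was higher. Rgma on chromosome 7 was lower. At an unadjusted p below 0.05 there were 1097 genes (6.07%), 506 higher and 591 lower. The median absolute log2 fold change over all tested genes was 0.06, against a median standard error of 0.08. The 5 labelled knockout libraries lay wholly outside the range of the 10 controls for 17 genes (0.0941%), 3 above and 14 below.

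Asb1 encodes an ankyrin repeat and SOCS box protein that recruits substrates to a cullin-based ubiquitin ligase. The gene starts 0.125 Mb from the start of Per2 (chr1:91540544-91559589, plus strand). In all distances between genes, the start is the lowest coordinate of the gene, whichever its strand. Per2 is on the minus strand, so this is not where its transcription begins. The libraries labelled knockout held 46.4, 47.0, 48.8, 47.6 and 45.0 CPM, and the controls 55.3 at the lowest, 57.8 at the median and 64.6 at the highest. The groups did not overlap, and no library in either group was far from its neighbours except control 2 at the top. The mean level was 0.802 of the control mean, a log2 fold change of -0.32 (SE 0.04, edgeR adjusted p = 1.30e-05). All 20 libraries of the other groups lay above the highest labelled knockout library, at 52.3 to 61.0 CPM. In bulk tissue, fewer cells of a type and less RNA per cell cannot be told apart.

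Bok encodes a member of the BCL-2 family that promotes cell death. It starts 2.27 Mb from Per2 (chr1:93685660-93695764, plus strand). The labelled knockout held 103, 77.9, 93.1, 97.5 and 103 CPM, against 50.5, 64.9 and 79.0 CPM as the lowest, median and highest control. Replicate 2 was the lowest of its group, and 1 control lay just above it, so the groups overlapped there. The mean was 1.45 times the control mean, a log2 fold change of 0.54 (SE 0.09, edgeR adjusted p = 0.00247). Among the other 20 libraries, 18 lay below the lowest labelled knockout library.

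Ano7, an anoctamin membrane protein, starts 1.96 Mb from Per2 (chr1:93373930-93404303, plus strand). Its counts were low: the labelled knockout held 0.751, 0.899, 1.41, 0.867 and 0.977 CPM, from 14 to 26 counts a library, and the controls 1.52, 1.88 and 2.64 CPM at the lowest, median and highest. No control reached down to the labelled knockout, whose replicate 3 came nearest. The log2 fold change was -0.99 (SE 0.17, edgeR adjusted p = 0.00247). Of the other 20 libraries, 17 lay above the highest labelled knockout value.

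Gpr55 encodes a G-protein-coupled receptor for lysophosphatidylinositol. It lies 5.48 Mb before Per2 (chr1:85938318-85961007, minus strand). The labelled knockout had 1, 4, 4, 6 and 6 counts, or 0.054 to 0.326 CPM, and the controls had 0.485, 0.916 and 1.38 CPM at the lowest, median and highest. The groups did not overlap, and all 20 other libraries were higher too, from 0.497 CPM. The log2 fold change was -2.12 (SE 0.36, edgeR adjusted p = 0.00265). An opposite-strand gene, 4933407L21Rik, covers 1.91% of the Gpr55 exon bases, and counting without strand cannot separate reads there. That gene was also lower at -0.79, without being called (edgeR adjusted p = 0.292).

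Rgma encodes a membrane-anchored co-receptor for bone morphogenetic proteins and a guidance cue for axons through neogenin. It was the only called gene outside chromosome 1 (chr7:73375509-73419899, plus strand). The labelled knockout held 66.8, 68.3, 71.1, 72.7 and 70.0 CPM, and the controls 74.1, 81.3 and 83.9 CPM at the lowest, median and highest. The groups did not overlap, and the lowest control, replicate 1, stood apart from the other 9. The log2 fold change was -0.21 (SE 0.04, edgeR adjusted p = 0.0283). All 20 other libraries were higher, at 78.3 to 96.3 CPM. The call was lost under 16 of 26 alternative settings, among them the fit against controls 1-5 alone.

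**Figure D1:**
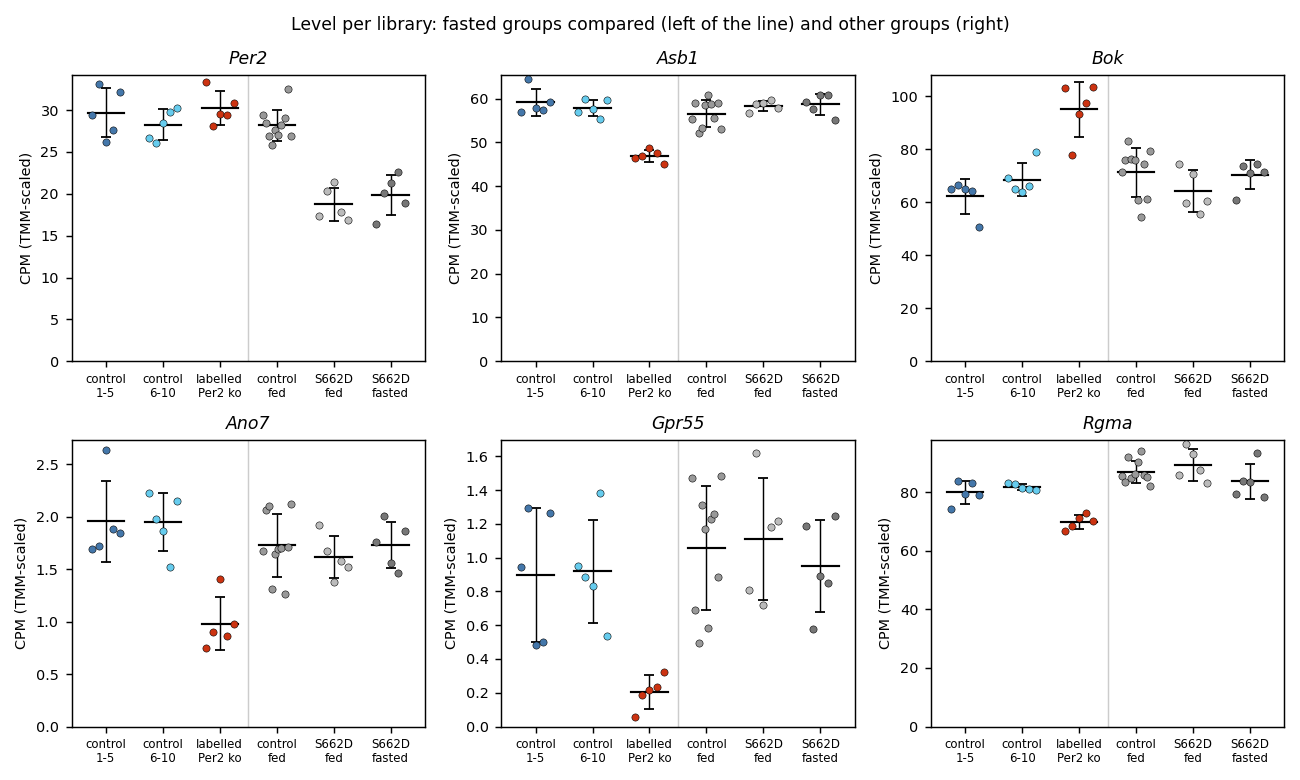
Level of Per2 and the 5 called genes in each of the 35 libraries, in CPM after scaling, by group; points are libraries, horizontal lines are group means and bars are 1 SD. Per2 overlaps between the labelled knockout and the controls, Asb1, Ano7, Gpr55 and Rgma lie below all 10 fasted controls, and Bok lies above 9 of them.

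Exact two-sided permutation tests of the mean log2 CPM over all 3003 regroupings of the 15 libraries gave p = 0.000333, the smallest this design can give, for Asb1, Ano7, Gpr55 and Rgma. For Bok the exact p was 0.000666. Since these genes had been picked from all tested genes, the adjusted p-values above are the measure of the call.

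The promoters of the 4 chromosome 1 genes were searched for the clock's E-box (CACGTG) and for an E-prime box (CACGTT, or AACGTG on the other strand). All 4 genes matched entries of RefSeq on GRCm38.p6, each a window of 300 bases, 250 before the start and 50 after it. Neither motif was found in the windows of Gpr55, Ano7 and Bok. Asb1 has a pair of annotated starts: the first window has neither motif, and the second has 1 E-prime box. Over all 32851 promoter windows, 7.15% held an E-box and 4.69% an E-prime box. The Asb1 and Bok windows are shown because these genes moved in opposite directions and have the highest counts of the 4. Capitals mark the E-prime box, and all 3 are read on the plus strand, 5′ to 3′, from chr1:91540315-91540614, chr1:91540830-91541129 and chr1:93685325-93685624.
Asb1, first start: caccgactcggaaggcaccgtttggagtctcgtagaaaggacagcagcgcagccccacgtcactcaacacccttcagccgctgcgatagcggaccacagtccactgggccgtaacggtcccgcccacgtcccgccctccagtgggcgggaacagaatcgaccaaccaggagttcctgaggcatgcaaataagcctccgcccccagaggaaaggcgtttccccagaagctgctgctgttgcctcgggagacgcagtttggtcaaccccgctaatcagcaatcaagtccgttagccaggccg
Asb1, second start: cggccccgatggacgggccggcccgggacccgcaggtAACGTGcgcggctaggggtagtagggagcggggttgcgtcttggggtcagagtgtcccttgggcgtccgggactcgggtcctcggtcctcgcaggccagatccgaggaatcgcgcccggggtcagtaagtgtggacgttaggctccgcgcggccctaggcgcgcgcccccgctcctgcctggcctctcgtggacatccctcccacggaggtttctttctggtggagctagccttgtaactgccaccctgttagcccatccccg
Bok: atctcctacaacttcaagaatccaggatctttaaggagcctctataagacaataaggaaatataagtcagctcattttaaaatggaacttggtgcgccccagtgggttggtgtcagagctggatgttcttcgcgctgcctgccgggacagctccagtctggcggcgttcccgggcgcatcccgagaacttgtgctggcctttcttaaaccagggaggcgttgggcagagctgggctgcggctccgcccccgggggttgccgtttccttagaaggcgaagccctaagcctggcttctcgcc
The match in the second Asb1 window describes letters only and is not evidence that a factor binds there.

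Genes around Per2 were then counted as a group. Within 10 Mb of its start the tables list 418 genes, of which 321 had a count and 133 passed the filter on low counts. Of these 133, 4 were called, beside 0.0277% of all tested genes. An unadjusted p below 0.05 was seen for 23 (17.3%), 10 higher and 13 lower. Outside the window that share was 5.99% of 17930 genes, and on chromosome 1 beyond 10 Mb it was 6.34% of 1009 genes. The share was 29.4% of 17 genes within 1 Mb, 23.8% of 42 within 2 Mb and 20.2% of 84 within 5 Mb. The median log2 fold change of the 133 genes was 0.01, with rises and falls nearly balanced. Of the 17 genes for which the groups did not overlap, 4 lay in the window: Gpr55, Asb1, Ano7 and D2hgdh. That was 3.01% of window genes, beside 0.0941% of all tested genes. The difference between the control sets showed no such excess near Per2: 20.3% of window genes and 22.8% of the others had an unadjusted p below 0.05. The window had been chosen with earlier results known, so these shares are descriptions.

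**Figure D2:**
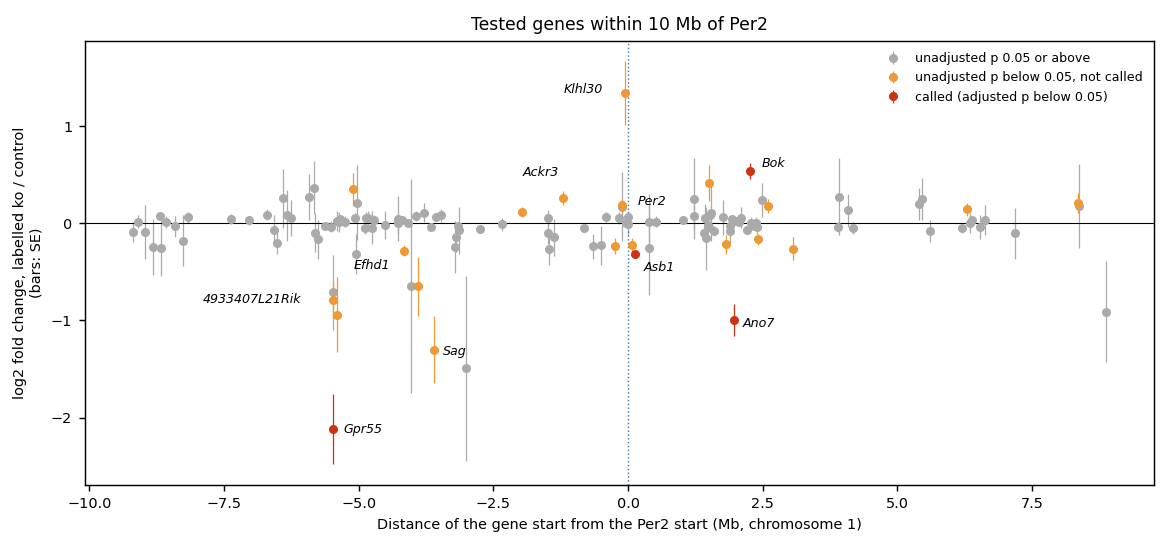
Log2 fold change of the labelled knockout against the 10 fasted controls for the 133 tested genes within 10 Mb of Per2, by distance of the gene start from the Per2 start; bars are standard errors. Start means the lowest coordinate of a gene, whichever its strand. The 4 called genes lie between 5.48 Mb before and 2.27 Mb after Per2, with Bok higher and Asb1, Ano7 and Gpr55 lower.

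Next to Per2, differences from control lay on both sides with no common sign. Klhl30, a kelch-like gene with its lowest coordinate 0.065 Mb from that of Per2, had 7 to 22 counts a library in the labelled knockout. Its level was 0.676 ± 0.223 CPM (SD, n = 5) against 0.266 ± 0.134 CPM (SD, n = 10). Its log2 fold change of 1.34 was not called (edgeR adjusted p = 0.292). It was 1.04 against controls 1-5 and 1.71 against controls 6-10, where it was called (edgeR adjusted p = 0.0231), and 2 controls lay above the lowest labelled knockout library. Traf3ip1, an intraflagellar transport protein, gave -0.22, and Ramp1, a subunit of the receptor for calcitonin gene-related peptide, gave -0.23. Scly, which recycles selenium from selenocysteine, gave 0.19. None of these 3 was called against all controls. Ramp1 was called against controls 6-10 (-0.38, edgeR adjusted p = 0.00759), gave -0.07 against controls 1-5, and differed by -0.31 between the control sets (edgeR adjusted p = 0.0173). Hes6, a transcription factor of neurogenesis, has its lowest coordinate 0.004 Mb from that of Per2. It gave -0.00 (SE 0.12), which averages 0.20 against controls 1-5 and -0.18 against controls 6-10. The control sets differed by -0.39 for it (edgeR adjusted p = 0.0323). Ilkap, a phosphatase, gave 0.01 (SE 0.05).

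Farther out, Efhd1, a calcium-binding mitochondrial protein 4.15 Mb before Per2, was the highest ranked gene that missed the threshold. It held 21.6 to 25.6 CPM in the labelled knockout and 24.97 to 33.9 CPM in the controls, so that 9 of 10 controls lay above every labelled knockout library. The log2 fold change was -0.28 (SE 0.06, edgeR adjusted p = 0.0755). It was called with DESeq2 (adjusted p = 0.0188), with no scaling (edgeR 0.0162), against controls 6-10 (edgeR 0.0217) and without control 9 (edgeR 0.0258), and 11.95% of its exon bases overlap an antisense gene, so the value is uncertain. Sag, the arrestin of photoreceptors, gave -1.30 at a mean of 0.212 CPM in the labelled knockout. Ackr3, a scavenging receptor for the chemokine CXCL12, gave 0.26, and D2hgdh, a mitochondrial dehydrogenase, gave -0.17. Sag, Ackr3 and D2hgdh were not called against all controls (edgeR adjusted p = 0.417, 0.451 and 0.738) or against either control set. Words of 50 bases shared with other transcripts make up 17.8% of D2hgdh, so its value is uncertain.

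Below the filter on low counts, Gm9994 was singled out after its values were seen. This predicted gene starts 2.502 Mb from Per2 (chr1:93918311-93942650). It had 3, 5, 6, 12 and 10 counts in labelled knockout replicates 1 to 5, and 1 count in all 10 fasted controls together. Fed controls had 6 counts in 10 libraries, and the S662D mice had 2 counts in 10 libraries. Every labelled knockout library thus held more than any of the other 30. Whether its reads also match other genes was not tested. The ratio per count sequenced was 67.0, with a counting interval of 11.3 to 2719. In a fit with no filter beyond 1 count, 36082 genes were tested and 5 were called, Asb1, Bok, Ano7, Gpr55 and Gm9994, all 5 within 10 Mb of Per2.

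**Figure D3:**
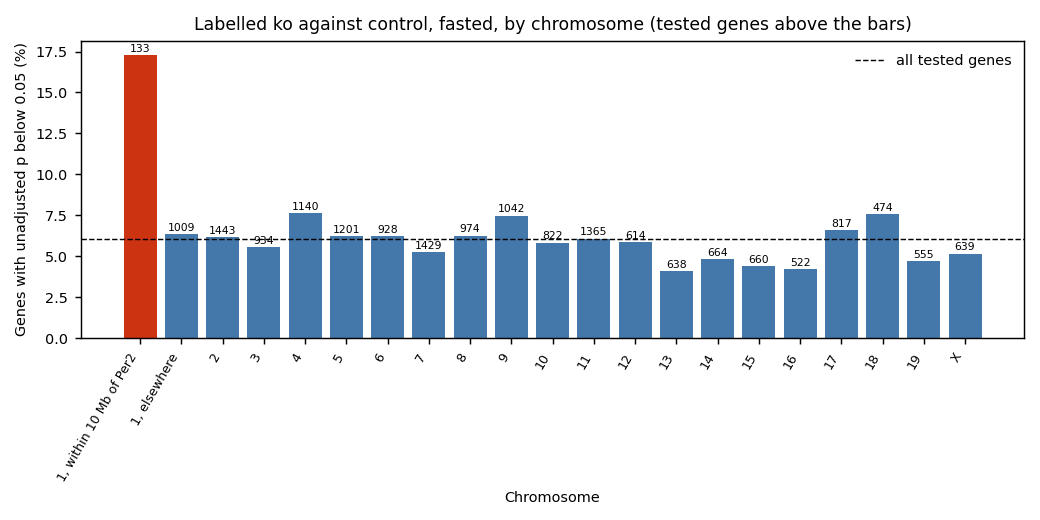
Share of tested genes with an unadjusted p below 0.05 in the labelled knockout against control, in percent, by chromosome, with the number of tested genes above each bar; chromosomes with fewer than 100 tested genes are not drawn, among them the mitochondrial one with 27.3% of 33 genes. The window within 10 Mb of Per2 reaches 17.3%, and the highest of the other bars drawn, chromosome 4, reaches 7.63%.

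The 4 chromosome 1 genes differed against each control set. These 2 comparisons share the 5 labelled knockout libraries, so they are no independent checks of each other. Against controls 1-5, 4 genes were called (0.0221%), and these were Asb1 (-0.33), Bok (0.61), Ano7 (-0.999) and Gpr55 (-2.10). Against controls 6-10 the log2 fold changes of the 4 were -0.30, 0.47, -0.99 and -2.14, all called. Rgma gave -0.19 (edgeR adjusted p = 0.503) and -0.23 (edgeR adjusted p = 0.00912). When each library was left out in turn, Asb1 and Bok stayed called against either set every time, and Ano7 and Gpr55 stayed called against controls 6-10 every time. Against controls 1-5, Ano7 was called in 3 of these 10 fits and Gpr55 in 3.

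The number of calls itself depended on the control set. Against controls 6-10, 287 genes were called (1.59%), 151 higher and 136 lower. The 2 sets of controls, which share genotype, strain, sex and fasting, differed from each other for 1088 genes (6.02%), 529 higher and 559 lower in controls 1-5. That contrast shares its libraries with the others. Leaving out 1 library moved the 287 widely. It became 714 without control 10, 98, 91, 93 and 71 without controls 6, 7, 8 and 9, and 479, 62, 573, 85 and 117 without labelled knockout replicates 1 to 5. The 1088 became 500, 658, 73, 611, 360 and 267 without controls 3, 4, 5, 6, 7 and 9. What separates the control sets was not tested.

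**Figure D4:**
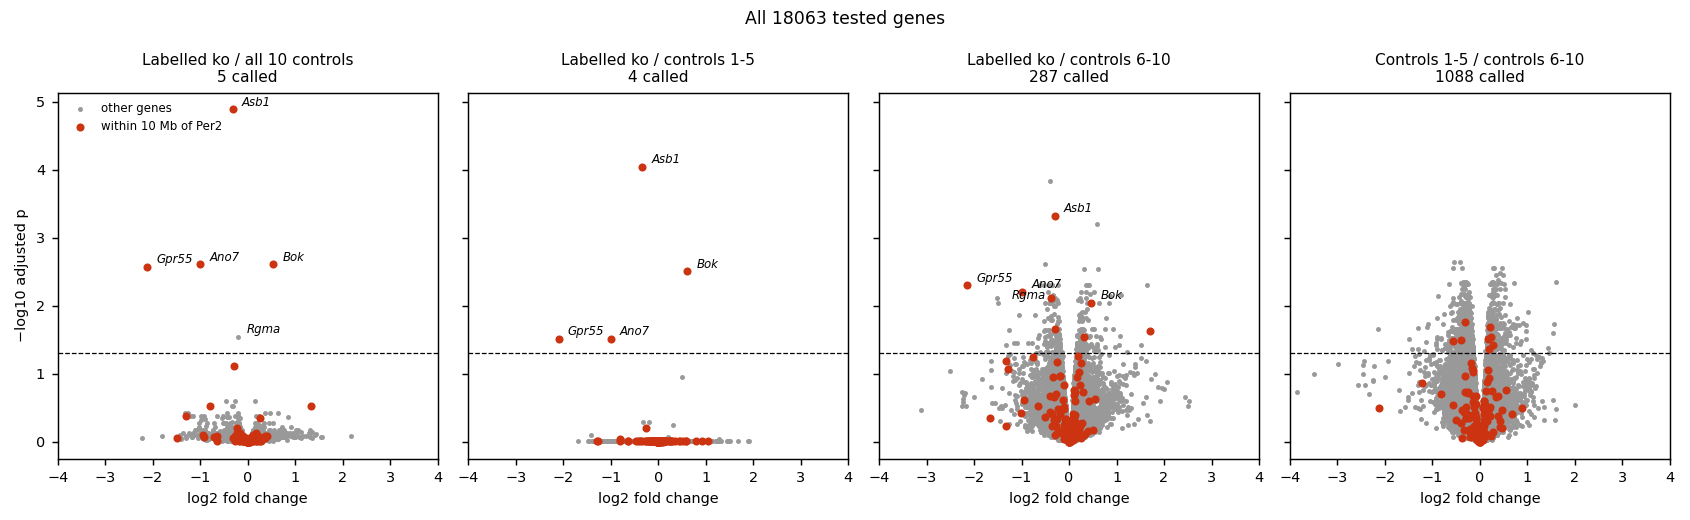
Adjusted p on a -log10 scale against log2 fold change for the 18063 tested genes in 4 panels: the labelled knockout against all 10 controls, against controls 1-5, against controls 6-10, and controls 1-5 against controls 6-10; the dashed line is an adjusted p of 0.05, and genes within 10 Mb of Per2 are drawn larger. The panels hold 5, 4, 287 and 1088 called genes, and Asb1 is among the calls of the first 3.

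The other genes among the 10 with the smallest p-values below the threshold lie on other chromosomes. Slc38a3, a glutamine transporter, had a log2 fold change of -0.27 (edgeR adjusted p = 0.251), made up of -0.11 against controls 1-5 and -0.41 against controls 6-10. The control sets differed by -0.29 for this gene (edgeR adjusted p = 0.00471). Fabp7, a fatty acid-binding protein of astrocytes and radial glia, gave -0.46, and was similar against each set at -0.42 and -0.51. Eif2s2, a subunit of translation initiation factor eIF2, gave 0.16, with 10.2% of its words shared with other transcripts, so its value is uncertain. Abca8a, a lipid transporter, gave -0.32, and Ttc7, a scaffold of a lipid kinase complex, gave -0.33. Rhcg, an ammonia transporter, gave -1.33, and Tepp, of which 30.2% of exon bases overlap another gene, gave -1.26, each below 1 CPM. The Tepp value is uncertain for that overlap. None of these 7 was called against all controls, where edgeR adjusted p-values ran from 0.251 to 0.376, and none against controls 1-5. Against controls 6-10, edgeR called Slc38a3 (adjusted p = 0.000147), Fabp7 (0.0223), Eif2s2 (0.0353), Abca8a (0.00502) and Ttc7 (0.0319). DESeq2 called Eif2s2 against all controls (adjusted p = 0.0390).

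Against all 10 controls, no member of the clock lists was called by edgeR or DESeq2: 0 of 8 repressors, 0 of 6 activators and ROR genes, and 0 of 11 tested output genes. The medians were 0.01, -0.03 and -0.03, against -0.00 over all tested genes. At an unadjusted p below 0.05 there were 3 repressors, 0 activators and 3 output genes (1 higher, 2 lower), beside 6.07% of all genes. Among the repressors, Nr1d1, the repressor REV-ERB alpha, gave -0.15, Cry1, a partner of PER2, gave -0.11, and Ciart, a repressor of CLOCK and BMAL1, gave 0.18. Per1 gave 0.02, Per3 gave -0.03 and Arntl, which encodes BMAL1, gave -0.07. The 12 kinases, phosphatases and ubiquitin ligases that act on PER2 or CRY had a median of 0.01. None was called, and 1 had an unadjusted p below 0.05.

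Dbp, a transcription factor driven by CLOCK and BMAL1, had the lowest p of the output genes. It held 50.2, 41.5, 45.4, 38.3 and 42.1 CPM in the labelled knockout. Controls 1-5 held 43.5 to 54.4 CPM and controls 6-10 held 45.9 to 76.8 CPM. The labelled knockout thus overlapped controls 1-5 and lay mostly below controls 6-10. The log2 fold change was -0.40 against all controls (edgeR adjusted p = 0.600), -0.16 against controls 1-5 and -0.60 against controls 6-10 (edgeR adjusted p = 0.00502). Between the control sets it was -0.45 (edgeR adjusted p = 0.0177).

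Markers of the suprachiasmatic nucleus, the site of the central clock, had a median of -0.00 over 12 genes. None was called, and 1, Six6, had an unadjusted p below 0.05, beside 6.07% of all genes. The peptides Vip and Avp gave 0.30 and 0.07, the receptor Vipr2 gave -0.01, and the developmental regulator Six6 gave 0.29. Prok2, an output signal of the nucleus, gave -0.90 at 0.186 CPM in the labelled knockout.

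Feeding genes gave different values against the 2 control sets. No hunger gene was called against all controls (0 of 8, median 0.11), nor any satiety gene (0 of 10, median 0.07). Against controls 6-10, 2 hunger genes, Npy and its receptor Npy1r, were called higher, beside 1.59% of all genes called there. The hunger median was 0.02 against controls 1-5 and 0.26 against controls 6-10. At an unadjusted p below 0.05 there was 1 hunger gene, Npy, and 0 satiety genes, beside 6.07% of all genes. Npy, the appetite-stimulating neuropeptide Y, held 14.2, 15.2, 14.9, 16.2 and 16.4 CPM in the labelled knockout, 10.8 to 17.1 CPM in controls 1-5 and 9.43 to 12.9 CPM in controls 6-10. The labelled knockout lay inside the range of the first set and above the second. Its log2 fold change was 0.16 and 0.53 in turn, and 0.36 between the control sets (edgeR adjusted p = 0.0329). Agrp, the other peptide of these hunger neurons, gave 0.07.

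Of 17 glucocorticoid-induced genes, 16 had values above 0 and none was called, with a median of 0.20, and 5 had an unadjusted p below 0.05, all higher, beside 6.07% of all genes. That median was 0.07 against controls 1-5, 0.35 against controls 6-10, where 4 were called higher beside 1.59% of all genes, and 0.32 between the control sets. Fkbp5, a co-chaperone of the glucocorticoid receptor, held 82.6 to 99.6 CPM in the labelled knockout, 72.5 to 85.5 CPM in controls 1-5 and 38.8 to 83.0 CPM in controls 6-10. Within controls 6-10, replicate 10 was the one at 83.0 CPM, and the others stayed at or below 58.7 CPM. Mt1, a metal-binding metallothionein, gave 0.31 and was 0.25 and 0.38 against the 2 sets. Mt2, the other metallothionein of the list, was its only member below 0, at -0.36 and 1.48 CPM in the labelled knockout.

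Interferon response genes had a median of -0.21 over 19 genes, 17 of them below 0 and none called, with 3 at an unadjusted p below 0.05, all lower, beside 6.07% of all genes. The median was -0.01 against controls 1-5 and -0.38 against controls 6-10, where 4 were called lower beside 1.59% of all genes, and -0.37 between the control sets. Gbp4, an interferon-induced GTPase, had the lowest value at -0.98, and gave -0.77 and -1.17 against the 2 sets. The summed level of 10 microglia markers, beside these values, was 255 to 312 CPM in the labelled knockout, 243 to 292 CPM in controls 1-5 and 298 to 341 CPM in controls 6-10. The part of these cells in the interferon values was not tested.

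Against all 10 controls, no gene of the metabolic lists was called. Unsaturated fatty acid synthesis had a median of 0.04 over 20 genes, sterol synthesis -0.06 over 24 genes with 22 below 0, and fatty acid oxidation 0.02 over 18 genes. At an unadjusted p below 0.05 there were 1 higher, 2 lower and 2 higher genes in turn, beside 6.07% of all genes. Against controls 6-10, 1 gene of unsaturated fatty acid synthesis and 2 of fatty acid oxidation were called higher, and none of sterol synthesis. The share called there over all genes was 1.59%. Angptl4, an inhibitor of lipoprotein lipase induced by fasting, gave 0.48 (edgeR adjusted p = 0.767). Early genes of neuronal activity had a median of -0.05 over 18 genes, and heat shock and cold-inducible genes 0.06 over 14, with none called and 0 at an unadjusted p below 0.05.

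**Figure D5:**
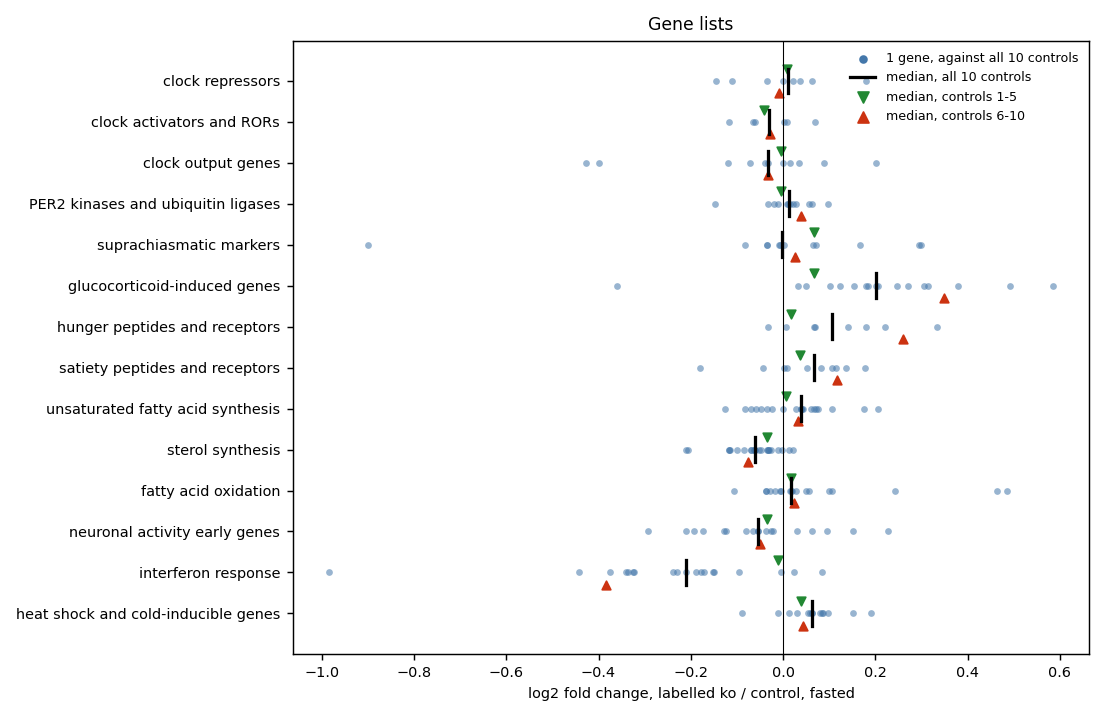
Log2 fold change of the labelled knockout against control for each tested gene of 14 lists, with the list median against all 10 controls (black line), controls 1-5 (downward triangle) and controls 6-10 (upward triangle). The medians against the control sets lie far apart for glucocorticoid-induced genes at 0.07 and 0.35 and for interferon response genes at -0.01 and -0.38.

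Markers checked the tissue of the libraries. Hypothalamic markers, 19 of 20 tested, summed to 793 to 981 CPM in the labelled knockout and 692 to 956 CPM in the controls, and the medians for neurons, astrocytes and oligodendrocytes were 0.02, 0.01 and -0.00. No member of the 18 marker lists was called against all controls or against controls 1-5. Against controls 6-10, where 1.59% of all genes were called, Neu4 of oligodendrocyte precursors and Sim1 were called higher. Opalin of oligodendrocytes and Ramp3 of thalamus were called lower. Sim1 is listed for the hypothalamus and for the mammillary region. Neu4 starts 2.60 Mb from Per2, inside the window of 10 Mb. Neu4 gave 0.05 against controls 1-5 and 0.32 against controls 6-10. The control sets differed by 0.27 for it (edgeR adjusted p = 0.0374). Choroid plexus varied most: its 12 markers summed to 225 to 624 CPM in the labelled knockout, 222 to 519 CPM in controls 1-5 and 267 to 2423 CPM in controls 6-10, and their median was 0.14 and -1.79 against the 2 sets. Its defining gene Ttr was detected in each of the 15 libraries. Blood markers, 6 tested, had a median of 0.30 and sums of 403 to 818 CPM against 444 to 870 CPM. Mitochondrial genes took 6.96% to 9.08% of counts in the labelled knockout and 6.81% to 8.70% in the controls, and 9 of the 33 tested (27.3%) had an unadjusted p below 0.05, all 9 higher, beside 6.07% of all genes. That share is above the one within 10 Mb of Per2, and none of the 33 was called. With the mitochondrial share of counts as a covariate, 6 genes were called. Asb1, Bok, Ano7 and Gpr55 were among them, and Rgma was not. The others were Pign (-0.35, edgeR adjusted p = 0.0220) and 4930447C04Rik (-0.32, edgeR adjusted p = 0.0446). Pign was also called without labelled knockout replicate 2 (-0.38, edgeR adjusted p = 0.00495).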

How the data were processed

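Raw counts per gene were deposited by the authors, 1 table for each library. The counter was featureCounts 2.0.1 with the GENCODE vM12 annotation on mm10, per the file headers, which show sums by gene name, multi-mapping reads counted wherever they aligned, and no strand option. The submitters' processing notes also list STAR 2.7.10b and Subread, and the role of each is not given in the sources used here. Genes with near-identical copies are therefore counted too high, and antisense reads cannot be separated.

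Of 49568 gene names, 36082 had a count and 18063 passed edgeR's filterByExpr (minimum count 10). Counts of all 35 libraries entered 1 quasi-likelihood fit (edgeR 4.0.16, R 4.3.3, TMM scaling, a mean per group). The test was two-sided, with Benjamini-Hochberg adjustment over all tested genes, and a gene was called at an adjusted p below 0.05. The control sets, replicates 1-5 and 6-10, were groups of their own in a second such fit. CPM values use the TMM-scaled library sizes, and log2 CPM a prior count of 2. The code was tested on simulated data. Alternatives used DESeq2 1.42.0, limma 3.58.1 (voom), other scalings, filters, samples and covariates.

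Nothing states that the mice of a group came from separate litters or cages, and p-values measure the spread between these 1-mouse libraries. Counts gave the precision of low genes, and the counting interval covers counting error only, at 95%. Pairs of libraries in a group differed by a chi-square of at least 2.76 per degree of freedom, so each counted as 1 replicate. Named genes are Per2, Asb1, Bok, all called genes and the 10 genes with the smallest p that were not called. All others named, among them Gm9994, neighbours of Per2 and list members, were chosen after their values were seen. Values are called uncertain for genes with an overlap of 10% or more of their exonic sequence with a second gene, or with 10% or more of their 50-base words in its transcripts (GENCODE M21). The comparison, its members and all 33 lists, the window around Per2 included, were chosen with earlier results of these data known.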

Additional observations from a re-analysis of the deposited data

Results flagged for a closer look

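A library far from the rest of its group was found in 4 of 36 groups checked, and chance gives about 1 in 20. Asb1 stood at 64.6 CPM in control 2, with the other 9 fasted controls at 55.3 to 59.9 CPM. Without that library the log2 fold change of Asb1 was -0.30 and it was still called. Rgma stood at 74.1 CPM in control 1, with the others at 79.1 to 83.9 CPM, which is nearer to the labelled knockout. Eif2s2 stood at 84.6 CPM in control 5, with the others at 73.4 to 78.7 CPM. Ttc7 stood at 10.9 CPM in control 6, with the others at 8.02 to 9.49 CPM.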

How the results depend on the processing

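The number of called genes in the labelled knockout against control, 5 with all libraries, was 287 with controls 6-10 only, 3 with only the 15 fasted libraries and 3 with limma-voom. DESeq2 called 7, no scaling 6, upper-quartile scaling 5, no filter 5 and a mean of at least 1 CPM 4. Leaving out each replicate in turn gave 4 to 5 calls. It gave 2 to 4 against controls 1-5, 62 to 714 against controls 6-10 and 73 to 1300 between the control sets (1088 with all libraries). Between the control sets, no scaling gave 366 higher and 712 lower, in place of 529 and 559, and DESeq2 called 1632. These leave-one-out fits within or between control sets were added after seeing the data. Per2 was not called under any of 26 alternatives, with log2 fold changes of 0.02 to 0.10. Asb1 stayed called under all 26. Bok lost its call under the replicate block (edgeR adjusted p = 0.0697; range over alternatives 2.03e-06 to 0.0697). Ano7 lost it under the block (edgeR adjusted p = 0.180) and with only the 15 fasted libraries (0.0646; range 0.000627 to 0.180), and Gpr55 with limma-voom (0.0525; range 0.000320 to 0.0525). Gpr55 was tested under 24 alternatives, since its low counts kept it out of the replicate block and of the filter at 1 CPM. Rgma kept its call in 10 of 26 (range 0.00372 to 0.503), and lost it without controls 2, 4, 6, 7, 8 or 9 or labelled knockout 1, 2, 3 or 5. The cause was not tested. The replicate block paired labelled knockout 1-5 with controls 1-5, leaving 10 libraries, and called 4 genes, of which Asb1 was shared with the 5. The labels say nothing of a shared number. Same-numbered libraries correlated at -0.17 to 0.12 over 14093 genes, after each gene's group mean was removed. Low correlations cannot decide whether the numbers pair the mice, since a shared cage or handling need not show in them. Gpr55, Klhl30 and Gm9994 rest on few counts per library, which limits their fold changes.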

Other observations

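Outside chromosome 1, the labelled knockout libraries lay apart from all 10 controls for 13 genes, of which only Rgma was called. That was 0.0768% of the 16921 genes tested there, beside 0.0941% of all tested genes. Hmgb2, a chromatin protein of dividing cells, was at 3.94 to 4.50 CPM against 4.63 to 6.30 CPM in the controls, a log2 fold change of -0.40 (edgeR adjusted p = 0.431). Socs1, a feedback inhibitor of cytokine signalling, was at 0.965 to 1.52 CPM against 1.62 to 2.76 CPM, a log2 fold change of -0.64 (edgeR adjusted p = 0.417). Fst, the activin-binding protein follistatin, was at 0.322 to 0.434 CPM against 0.539 to 1.50 CPM, a log2 fold change of -1.05 (edgeR adjusted p = 0.651). Against controls 6-10, where 1.59% of all genes were called, Hmgb2 and Socs1 were called (edgeR adjusted p = 0.0466 and 0.0350). Fst was not called there (edgeR adjusted p = 0.0950).

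F3, which encodes coagulation tissue factor, was the most even of these 17 genes within the labelled knockout. Its 5 libraries held 79.7 to 81.2 CPM, controls 1-5 held 73.1 to 79.0 CPM, and controls 6-10 held 53.4 to 77.6 CPM. The labelled knockout thus lay just above the first set. F3 gave a log2 fold change of 0.07 against controls 1-5 and 0.35 against controls 6-10, where it was called (edgeR adjusted p = 0.0149). The control sets differed by 0.28 for F3 (edgeR adjusted p = 0.0273). It was not called against all 10 controls (edgeR adjusted p = 0.779).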
